A study of Sus scrofa with 8 samples.

Results

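GPX2 and TXNIP are 2 redox genes among the 10901 named genes of this array series. GPX2 encodes a glutathione peroxidase of epithelia, and TXNIP encodes the thioredoxin-interacting protein. Each is read by 1 probe set named for it in the platform annotation, 15318201 for GPX2 (NCBI gene 767625) and 15281045 for TXNIP (NCBI gene 733688). They were chosen by their measured log2 values, which ranked 7th and 10th among all decreases between 24h and 7 days of culture. Their own values are therefore given as a description, without a test. At the edge of that ranking, TXNIP lay 3.61 log2 units lower at 7 days and the next gene, IL24, 3.58 units lower.

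The series followed porcine oviductal epithelial cells in primary culture. Cells were cut from the oviducts of cycling landrace crossbred gilts (45 in the study, about 9 months old) and freed with collagenase and trypsin. They were grown in DMEM with 10% fetal bovine serum, penicillin, streptomycin and amphotericin B, the same for all groups, and harvested after 24h, 7 days, 15 days or 30 days. Each time has 2 arrays of pooled RNA, which the labels call biological replicates without saying how the pools were made, so the p-values measure only the spread between these arrays, which may be technical. No group is a treated or genetically altered one, and the 24h culture is the earliest sample rather than fresh tissue. The 3 comparisons against 24h share its 2 arrays.

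Cells remove hydrogen peroxide and lipid peroxides mainly through 2 thiol systems. Glutathione peroxidases reduce peroxides with glutathione, which glutathione reductase regenerates, and peroxiredoxins do so with thioredoxin, which thioredoxin reductase regenerates. GPX2 is a selenocysteine-containing peroxidase known from the lining of the gut and other epithelia, and it is a known target of the oxidative stress factor NFE2L2 (NRF2). TXNIP binds thioredoxin and limits its activity, belongs to the alpha-arrestin family, and is known to promote the removal of glucose transporters from the cell surface. Its gene is a known target of the glucose-sensing factor pair MLXIP (MondoA) and MLX.

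GPX2 was high only on the 24h arrays. Its log2 values at 24h were 8.06 and 8.65 on replicates 1 and 2. At 7 days they were 3.97 and 4.0, at 15 days 3.87 and 3.64, and at 30 days 3.36 and 3.15. The lowest 24h array thus lay more than 4 log2 units above every later array, and no 2 times overlapped.

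The mean of GPX2 was 8.36 ± 0.42 at 24h (SD, n = 2) and 3.99 ± 0.018 at 7 days, a difference of -4.37 ± 0.18 log2 units (SE) or 20.7-fold. The difference from 24h was -4.60 ± 0.18 at 15 days (24.2-fold) and -5.10 ± 0.18 at 30 days (34.4-fold). Between 7 and 15 days the means differed by 0.23 log2 units downwards, which is no more than the 0.23 between the 15-day arrays. From 15 to 30 days the mean was 0.50 lower, more than the 0.23 and 0.21 between the arrays of those times. In order of level the times were 24h, 7 days, 15 days and 30 days, with 7 and 15 days not separated beyond the spread of their arrays. Order and size among the later times rest on low values.

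The later GPX2 values lay below the array medians of 4.69 to 4.77, and no detection calls were used here, so how far these values stand above background was not tested. The 0.59 between the 24h arrays was larger than the gap of 96.6% of named genes at that time. In RNA of a whole culture, fewer cells of a type and less RNA per cell cannot be told apart.

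TXNIP was low at 7 days alone. Its log2 values at 24h were 10.07 and 10.07, at 7 days 6.74 and 6.20, at 15 days 9.46 and 9.42, and at 30 days 9.36 and 9.48. Both 7-day arrays lay far below every other array. The 15- and 30-day arrays overlapped each other, and all 4 of them lay below both 24h arrays.

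The mean of TXNIP was 10.07 ± 0.0010 at 24h (SD, n = 2) and 6.47 ± 0.39 at 7 days, a difference of -3.61 ± 0.16 log2 units (SE) or 12.2-fold. From 7 to 15 days it was 2.97 ± 0.16 higher, 7.84-fold and the 6th largest increase of that comparison. At 15 and 30 days the differences from 24h were -0.63 ± 0.16 and -0.65 ± 0.16, 1.55-fold and 1.57-fold. The difference from 24h to 15 days was -0.80 after centring every array on its median over named genes. In order of level the times were 24h, then 15 and 30 days together, then 7 days. The gap of 0.55 between the 7-day arrays exceeded that of 96.1% of named genes at that time, against a gap of 0.0014 between the 24h arrays.

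**Figure D1:**
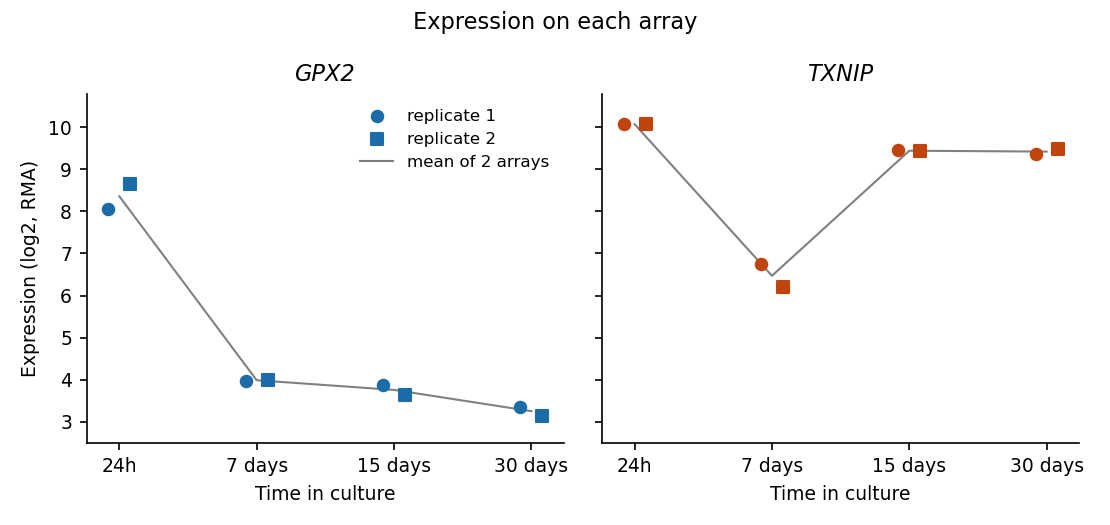
Expression of GPX2 (left) and TXNIP (right) on each array as log2 values after RMA, against time in culture with the 4 times evenly spaced; circles are replicate 1, squares replicate 2 and the line joins the means of 2 arrays. GPX2 stands near 8 only at 24h and lies at or below 4.0 from 7 days on, while TXNIP dips to 6.47 at 7 days and is back at 9.44 at 15 days.

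The other measured alpha-arrestins differed among themselves. Of 3 measured, 0 rose and 2 fell at 7 days, beside 18.3% of all named genes called higher and 15.4% called lower, and 2 rose and 1 fell from 7 to 15 days, beside 6.58% and 6.72%. ARRDC4 is a close relative of TXNIP that is also known to limit glucose uptake. ARRDC4 values were 6.52 and 6.05 at 24h, 5.64 and 5.35 at 7 days, 7.71 and 7.46 at 15 days, and 7.76 and 7.48 at 30 days. Both 7-day arrays were the lowest of the 8, and the arrays of 15 and 30 days lay above all those of 24h. ARRDC4 fell by 0.79 ± 0.18 from 24h to 7 days (limma adjusted p = 0.00821) and rose by 2.09 ± 0.18 from 7 to 15 days (limma adjusted p = 0.000101). At 15 and 30 days it was 1.30 ± 0.18 and 1.33 ± 0.18 above 24h (limma adjusted p = 0.000368 and 0.000241), where TXNIP stayed below its 24h level.

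ARRDC3, which is known for its part in the trafficking of membrane receptors, had values of 8.25 and 8.36 at 24h, 7.98 and 7.57 at 7 days, 8.57 and 8.43 at 15 days, and 8.93 and 9.04 at 30 days. The 7-day arrays were again the lowest. ARRDC3 fell by 0.53 ± 0.15 at 7 days (limma adjusted p = 0.0195), rose by 0.73 ± 0.15 from 7 to 15 days (limma adjusted p = 0.00978) and was 0.68 ± 0.15 above 24h at 30 days (limma adjusted p = 0.00378). ARRDC2 did not share the 7-day dip, with a change of -0.075 ± 0.15 (limma adjusted p = 0.792), and fell by 0.96 ± 0.15 at 15 days (limma adjusted p = 0.000827). The 7-day call of ARRDC4 was lost without replicate 1 of 24h (-0.56) and without replicate 2 of 7 days (-0.64). That of ARRDC3 was lost without replicate 2 of 24h (-0.47) or of 7 days (-0.32) and when only these 2 groups were fitted, and its rise to 15 days was lost without replicate 2 of 7 days (0.52) or replicate 1 of 15 days (0.66). The fall of ARRDC2 from 7 to 15 days (-0.88 ± 0.15) was lost without replicate 2 of 15 days (-0.80).

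**Figure D2:**
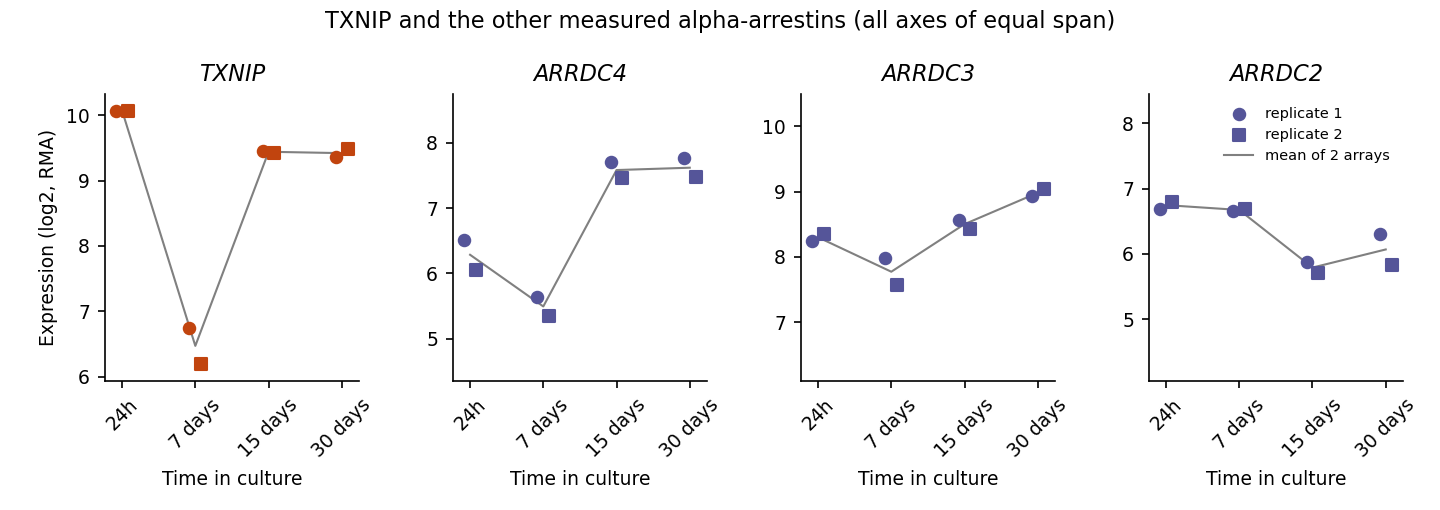
Log2 values of TXNIP, ARRDC4, ARRDC3 and ARRDC2 on each array against time in culture, each panel with its own axis of the same span; circles are replicate 1, squares replicate 2 and lines join means. TXNIP, ARRDC4 and ARRDC3 have their lowest arrays at 7 days, and ARRDC2 has its lowest array at 15 days.

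Of the glucose-sensing factors known to act on TXNIP, MLXIP and MLXIPL were not called in any comparison of the main analysis and MLX was called lower at 15 days. MLXIP differed from 24h by -0.23 ± 0.14, -0.18 ± 0.14 and 0.058 ± 0.14 at 7, 15 and 30 days (limma adjusted p = 0.297, 0.383 and 0.807). MLXIPL (ChREBP), its relative of liver and fat, differed by -0.15 ± 0.19, -0.17 ± 0.19 and -0.059 ± 0.19 (limma adjusted p = 0.652, 0.575 and 0.852), but was called at 7 days without replicate 2 of that time (-0.47). MLX, the partner of both, changed by 0.20 ± 0.10 at 7 days (limma adjusted p = 0.191) and fell by 0.34 ± 0.10 at 15 days (limma adjusted p = 0.0281). That call was lost when any 1 of the 24h or 15-day arrays was left out (-0.30 to -0.38). From 7 to 15 days, when TXNIP was 2.97 higher, MLX fell by 0.54 ± 0.10 (limma adjusted p = 0.00819), a call lost without replicate 1 (-0.56) or 2 (-0.52) of 15 days. NLRP3, an inflammasome sensor known to bind TXNIP, differed by 0.15 ± 0.12, 0.12 ± 0.12 and 0.0074 ± 0.12 (limma adjusted p = 0.401, 0.513 and 0.973). The means of MLXIPL (3.82 to 3.98) and NLRP3 (3.48 to 3.64) lay below the array medians at every time, so whether either was above background was not tested.

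Of 13 measured regulators and partners of TXNIP, 3 rose (23.1%) and 2 fell (15.4%) at 7 days, near the 18.3% and 15.4% of all named genes. Their median change was 0.16, beside -0.0064 over all named genes. At 15 days 2 rose and 4 fell (all named genes 19.3% and 18.1%), and at 30 days 2 rose and 2 fell (20.2% and 21.1%). ERN1 (IRE1), a sensor of endoplasmic reticulum stress, fell at the 3 times, by changes of -1.62 ± 0.13, -1.65 ± 0.13 and -1.71 ± 0.13 (limma adjusted p = 1.42e-05, 8.16e-06 and 4.22e-06). EIF2AK3 (PERK), another sensor of that stress, rose by 0.53 ± 0.11 at 15 days and 1.32 ± 0.11 at 30 days (limma adjusted p = 0.00485 and 1.08e-05). PPARA, a fatty acid sensor, rose by 1.11 ± 0.16 at 7 days (limma adjusted p = 0.000467), from a 24h mean of 4.0 below the array medians.

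Other glutathione peroxidases did not share the pattern of GPX2. Of 4 measured (GPX3, GPX5, GPX6 and GPX8), 2 rose and 0 fell at each time against 24h, beside 18.3%, 19.3% and 20.2% of all named genes called higher and 15.4%, 18.1% and 21.1% called lower. GPX1, GPX4 and GPX7 were not analysed here. GPX8, a peroxidase of the endoplasmic reticulum membrane, had values of 6.15 and 5.68 at 24h, 6.81 and 6.49 at 7 days, 7.80 and 7.74 at 15 days, and 7.93 and 7.79 at 30 days. Every later array was above both 24h arrays, the reverse of GPX2. GPX8 rose by 0.73 ± 0.17, 1.85 ± 0.17 and 1.94 ± 0.17 at 7, 15 and 30 days (limma adjusted p = 0.00764, 2.11e-05 and 1.08e-05). GPX3, the secreted peroxidase of plasma, rose by 0.73 ± 0.19, 1.36 ± 0.19 and 1.40 ± 0.19 (limma adjusted p = 0.0143, 0.000324 and 0.000205). The 7-day call was lost for GPX8 without replicate 1 of 7 days (0.57), and for GPX3 without replicate 1 of 24h (0.69) or replicate 2 of 7 days (0.57). GPX5 and GPX6, known from the epididymis and the olfactory lining, differed from 24h by between -0.10 and -0.19 (limma adjusted p = 0.274 to 0.730). The means of both, and those of GPX3 at 24h (3.48) and 7 days (4.21), lay below the array medians. At 15 and 30 days the GPX3 means (4.84 and 4.88) were only a little above them.

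Genes that make, use and regenerate glutathione went both ways. Of 14 measured genes of glutathione synthesis, import and reduction, 4 rose and 5 fell at 7 days, 3 rose and 6 fell at 15 days, and 4 rose and 7 fell at 30 days. The called shares were 64.3%, 64.3% and 78.6%, beside 33.7%, 37.4% and 41.2% of all named genes. Their medians were 0.082, -0.30 and -0.29, beside -0.0064, -0.039 and -0.021 over all named genes. GCLC, the catalytic subunit of the rate-limiting ligase of glutathione synthesis, fell by 0.54 ± 0.15, 0.85 ± 0.15 and 1.12 ± 0.15 (limma adjusted p = 0.0203, 0.00152 and 0.000199). Its regulatory subunit GCLM fell by 0.67 ± 0.14, 0.66 ± 0.14 and 0.61 ± 0.14 (limma adjusted p = 0.00495, 0.00459 and 0.00640). GSR, glutathione reductase, fell by 0.59 ± 0.13 at 30 days (limma adjusted p = 0.00384), while its changes of -0.25 ± 0.13 and -0.28 ± 0.13 at 7 and 15 days were called only after median centring (-0.42 and -0.44).

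At 7 and 15 days the largest falls named from this group were those of enzymes that break glutathione or peptides down. CHAC1, a glutathione-degrading enzyme of the stress response, fell by 1.79 ± 0.15, 2.83 ± 0.15 and 1.95 ± 0.15 (limma adjusted p = 1.94e-05, 6.80e-07 and 4.89e-06). ANPEP, a surface aminopeptidase that can cleave glutathione breakdown products, fell by 2.80 ± 0.14, 2.31 ± 0.14 and 1.05 ± 0.14 (limma adjusted p = 1.11e-06, 1.72e-06 and 0.000226). GGT1, which starts the breakdown of extracellular glutathione, rose by 1.10 ± 0.14 at 7 days and 1.41 ± 0.14 at 15 days (limma adjusted p = 0.000194 and 2.93e-05). From 15 to 30 days GGT1 fell by 0.95 ± 0.14 (limma adjusted p = 0.00165). Its means at 24h (3.5), 7 days (4.62) and 30 days (3.98) lay below the array medians. The 7-day call of GCLC was lost without replicate 2 of 24h (-0.33) or of 7 days (-0.45) and when only these 2 groups were fitted, and the 30-day call of GCLM without replicate 2 of 30 days (-0.54).

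Of 9 measured glutathione S-transferases and related enzymes, 4 rose and 2 fell at 7 days, 5 rose and 3 fell at 15 days, and 5 rose and 4 fell at 30 days, so that 66.7%, 88.9% and 100% were called, beside 33.7%, 37.4% and 41.2% of all named genes. GSTM3, a transferase of the mu class, had log2 values of 10.12 and 10.17 at 24h, 8.21 and 8.16 at 7 days, 6.57 and 6.36 at 15 days, and 5.36 and 5.41 at 30 days. The arrays of each time lay below all those of the time before, a stepwise course unlike the early drop of GPX2. GSTM3 fell by 1.96 ± 0.11, 3.68 ± 0.11 and 4.76 ± 0.11 against 24h (limma adjusted p = 2.01e-06, 3.18e-08 and 3.36e-09). GSTA1, of the alpha class, fell by 2.15 ± 0.20 and 2.31 ± 0.20 at 15 and 30 days (limma adjusted p = 2.75e-05 and 1.23e-05). Its means at those times (4.21 and 4.05) lay below the array medians. PTGES, a membrane-bound prostaglandin E synthase that uses glutathione, rose by 2.19 ± 0.12 at 7 days (limma adjusted p = 1.35e-06).

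Genes around TXNIP's binding partner thioredoxin went both ways. Of 18 measured genes of the thioredoxin system and peroxiredoxins, 7 rose and 3 fell at 7 days, 5 rose and 5 fell at 15 days, and 4 rose and 5 fell at 30 days. At 7 days 38.9% rose and 16.7% fell, beside 18.3% and 15.4% of all named genes, and at 30 days 22.2% and 27.8%, near the background of 20.2% and 21.1%. TXN, the cytosolic thioredoxin that TXNIP binds, had values of 11.14 and 11.34 at 24h, 10.95 and 10.94 at 7 days, 10.77 and 10.70 at 15 days, and 10.62 and 10.56 at 30 days. The times did not overlap and stepped down in order, without the 7-day minimum of TXNIP. TXN fell by 0.51 ± 0.11 at 15 days and 0.65 ± 0.11 at 30 days (limma adjusted p = 0.00558 and 0.00101). Its change of -0.29 ± 0.11 at 7 days was not called (limma adjusted p = 0.0747), but was called after median centring (-0.46), a further quantile normalization (-0.33) or with a trended, robust variance, and the 15-day call was lost without replicate 2 of 15 days (-0.47).

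TXNRD1, the cytosolic reductase of thioredoxin and itself a selenoprotein, had values of 9.76 and 9.81 at 24h, 8.92 and 8.61 at 7 days, 8.73 and 8.63 at 15 days, and 9.06 and 9.06 at 30 days. All later arrays lay below both 24h arrays. TXNRD1 fell by 1.02 ± 0.13, 1.10 ± 0.13 and 0.72 ± 0.13 (limma adjusted p = 0.000206, 9.42e-05 and 0.00112). PRDX1, a cytosolic peroxiredoxin, fell by 0.47 ± 0.12, 0.48 ± 0.12 and 0.43 ± 0.12 (limma adjusted p = 0.0125, 0.0101 and 0.0160). The 7- and 15-day calls were lost with the mean of the gene's probe sets (-0.30 and -0.33). All 3 calls were lost without replicate 2 of 24h (-0.35, -0.36 and -0.30) and without single arrays of the later times. Without replicate 1 or 2 of 15 days the 15-day change was -0.47 or -0.50, without those of 30 days the 30-day change was -0.44 or -0.41, and without replicate 1 of 7 days the 7-day change was -0.41.

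In the other direction, PRDX3, the mitochondrial peroxiredoxin, rose by 1.07 ± 0.16, 1.13 ± 0.16 and 0.86 ± 0.16 (limma adjusted p = 0.000617, 0.000351 and 0.00155). MSRB3, a methionine sulfoxide reductase, rose by 1.77 ± 0.15, 2.37 ± 0.15 and 2.42 ± 0.15 (limma adjusted p = 1.76e-05, 1.65e-06 and 9.09e-07). NXN, the thioredoxin relative nucleoredoxin, rose by 1.18 ± 0.14, 1.25 ± 0.14 and 0.76 ± 0.14 (limma adjusted p = 0.000161, 8.21e-05 and 0.00153).

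NFE2L2, the factor known to drive GPX2, rose at 15 and 30 days, while genes known as its targets or listed on its pathway went both ways. NFE2L2 had values of 9.92 and 10.18 at 24h, 10.48 and 10.36 at 7 days, 10.69 and 10.63 at 15 days, and 11.01 and 10.81 at 30 days. Its times did not overlap and stepped up in order. NFE2L2 rose by 0.61 ± 0.13 at 15 days and 0.86 ± 0.13 at 30 days (limma adjusted p = 0.00437 and 0.000427). The change of 0.37 ± 0.13 at 7 days was not called (limma adjusted p = 0.0542) and passed without replicate 2 of 24h (0.50), with a trended, robust variance, after a further quantile normalization or without the dimmest 25% of genes. KEAP1, which marks NFE2L2 protein for degradation, fell by 0.49 ± 0.12 at 7 days (limma adjusted p = 0.0119). That call was lost without replicate 1 of 24h (-0.38) or of 7 days (-0.47), and the 15-day change of -0.32 ± 0.12 (limma adjusted p = 0.0738) was called without replicate 2 of 24h (-0.43) or after median centring.

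NQO1, a quinone reductase and standard NFE2L2 target, had values of 7.22 and 7.42 at 24h, 6.27 and 6.10 at 7 days, 5.71 and 5.86 at 15 days, and 6.0 and 6.23 at 30 days. Every later array lay below both 24h arrays, as for GPX2. NQO1 fell by 1.14 ± 0.13, 1.54 ± 0.13 and 1.20 ± 0.13 (limma adjusted p = 0.000141, 1.53e-05 and 5.33e-05). NQO1, GCLC, GCLM, TXNRD1 and PRDX1, all known as NFE2L2 targets, were thus called lower at all 3 times, within the limits given for each. They are put together here by their direction and do not stand for NFE2L2 targets as a set. Only NQO1 among them is on the NFE2L2 pathway list. Of the 21 measured genes on the NFE2L2 pathway list, however, 6 rose and 4 fell at 7 days, 9 rose and 5 fell at 15 days, and 9 rose and 3 fell at 30 days. The shares that rose were 28.6%, 42.9% and 42.9% (all named genes 18.3%, 19.3% and 20.2%), and those that fell 19.0%, 23.8% and 14.3% (15.4%, 18.1% and 21.1%). EPHX1, an epoxide hydrolase on that list, rose by 1.46 ± 0.21, 2.35 ± 0.21 and 2.45 ± 0.21 (limma adjusted p = 0.000452, 1.63e-05 and 8.40e-06). ABCC2, an exporter of glutathione conjugates on the same list, rose by 1.66 ± 0.19 at 7 days and 1.17 ± 0.19 at 15 days (limma adjusted p = 0.000135 and 0.000901). Its means at 24h (4.38) and 30 days (4.21) lay below the array medians. MAFF, a small partner of NFE2L2, fell by 2.24 ± 0.13 at 15 days (limma adjusted p = 1.32e-06), to a mean of 4.02 below the array medians.

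**Figure D3:**
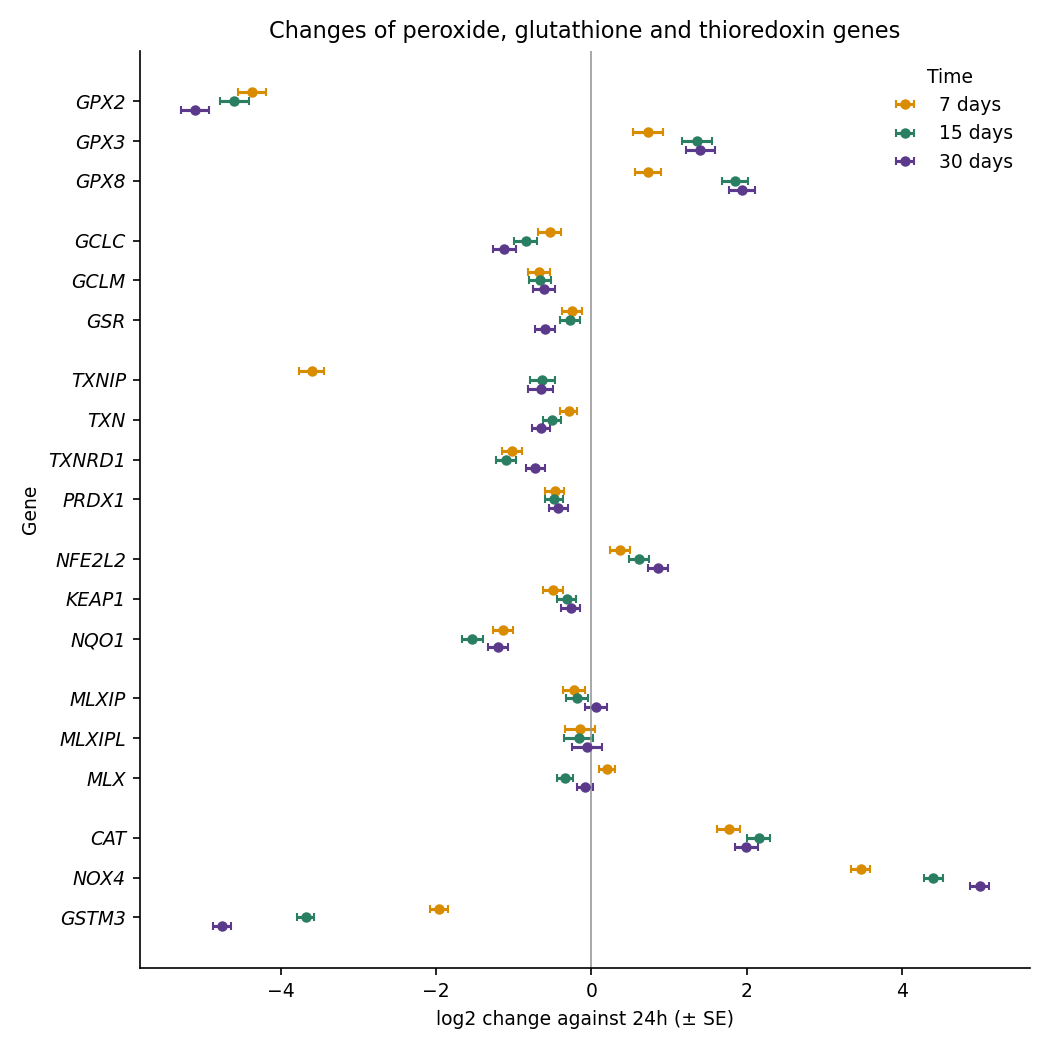
Log2 change against 24h at 7 days (orange), 15 days (green) and 30 days (purple) for GPX2, TXNIP and 17 other genes, grouped as peroxidases, glutathione genes, thioredoxin genes, NFE2L2 and its regulator and target, the MLX factors, and 3 genes with large changes; points are differences of means of 2 arrays and bars the SE. GPX2 lies beyond -4 at all 3 times while GPX3 and GPX8 lie to the right of 0, and TXNIP has its large difference (-3.61) at 7 days.

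Of 14 measured superoxide and peroxide enzymes, 5 rose and 1 fell at 7 days, 7 rose and 1 fell at 15 days, and 6 rose and 1 fell at 30 days. The called shares were 42.9%, 57.1% and 50%, beside 33.7%, 37.4% and 41.2% of all named genes. NOX4, an oxidase that produces hydrogen peroxide, had values of 3.73 and 3.85 at 24h, 7.35 and 7.16 at 7 days, 8.24 and 8.14 at 15 days, and 8.71 and 8.88 at 30 days. Its lowest array of each time lay above every array of the time before. NOX4 rose by 3.47 ± 0.12, 4.40 ± 0.12 and 5.00 ± 0.12 (limma adjusted p = 1.82e-07, 2.01e-08 and 3.91e-09), from a 24h mean of 3.79 that lay below the array medians and was not tested against background. CAT, catalase of peroxisomes, rose by 1.77 ± 0.15, 2.15 ± 0.15 and 2.00 ± 0.15 (limma adjusted p = 2.00e-05, 3.71e-06 and 4.11e-06), and PON2, an intracellular lactonase, rose by 1.08 ± 0.17, 1.80 ± 0.17 and 2.12 ± 0.17 (limma adjusted p = 0.000971, 2.86e-05 and 6.61e-06).

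GPX2 needs selenocysteine, which dedicated proteins insert as the chain is made. The list of selenoproteins and selenocysteine insertion genes also holds the receptors LRP2 and LRP8, so its counts do not measure insertion alone. Of its 13 measured genes, 3 rose and 1 (LRP8) fell at 7 days, 5 rose and 3 fell at 15 days, and 4 rose and 3 fell at 30 days. At 7 days 30.8% were called, no more than the 33.7% of all named genes, and at 15 and 30 days 61.5% and 53.8%, beside 37.4% and 41.2%. LRP8, a receptor for the selenium carrier selenoprotein P, fell by 0.87 ± 0.12, 1.63 ± 0.12 and 1.50 ± 0.12 (limma adjusted p = 0.000483, 6.86e-06 and 8.06e-06). LRP2, another such receptor, rose by 1.06 ± 0.19 and 1.10 ± 0.19 at 15 and 30 days (limma adjusted p = 0.00170 and 0.00108). Its 24h mean of 4.34 lay below the array medians. SELENON, a selenoprotein of the endoplasmic reticulum, rose by 1.06 ± 0.10 and 0.98 ± 0.10 at those times (limma adjusted p = 3.36e-05 and 4.24e-05).

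The lipid peroxide list mixes defence genes with lipoxygenases (ALOX5, ALOX12 and ALOX15), fatty acid genes and TFRC, so its counts do not measure defence. GPX4, SLC7A11 and GCH1 were not analysed here. Of its 14 measured genes, 9 rose and 0 fell at 7 days, and 5 rose and 2 fell at 15 days. At 30 days 6 rose and 3 fell. At 7 days 64.3% rose, beside 18.3% of all named genes, and at 15 and 30 days 35.7% and 42.9%, beside 19.3% and 20.2%. The median changes were 0.98, 0.20 and 0.29, beside -0.0064, -0.039 and -0.021 over all named genes. FADS2, a fatty acid desaturase, rose by 2.44 ± 0.14, 1.93 ± 0.14 and 2.76 ± 0.14 (limma adjusted p = 1.86e-06, 4.53e-06 and 2.86e-07). SCD, the desaturase that makes monounsaturated fatty acids, rose by 2.33 ± 0.18 at 7 days and 2.54 ± 0.18 at 30 days (limma adjusted p = 1.01e-05 and 2.43e-06), and ACSL3, which activates fatty acids, rose by 1.04 ± 0.15, 0.75 ± 0.15 and 1.45 ± 0.15 (limma adjusted p = 0.000632, 0.00367 and 4.23e-05). The metallothionein and iron storage list had 8 measured genes, with no metallothionein among them. Of the 8, 3 rose and 1 fell at 7 days, and 3 rose and 2 fell at 15 days. At 30 days 4 rose and 2 fell. The called shares were 50%, 62.5% and 75.0%, beside 33.7%, 37.4% and 41.2% of all named genes. CP, the copper-binding ferroxidase ceruloplasmin, rose by 4.38 ± 0.17 and 4.80 ± 0.17 at 15 and 30 days (limma adjusted p = 1.00e-07 and 2.42e-08), from a 24h mean of 3.21 below the array medians, and SLC40A1, the iron exporter ferroportin, rose by 1.93 ± 0.20 and 3.59 ± 0.20 (limma adjusted p = 5.39e-05 and 6.09e-07). NCOA4, which delivers ferritin for breakdown, rose by 0.58 ± 0.12 at 30 days (limma adjusted p = 0.00237).

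Over all 11 lists, 128 genes other than GPX2 and TXNIP were measured. At 7 days 65 of them (50.8%) were called, 44 higher and 21 lower, beside 33.7% of all named genes. At 15 days 77 were called, 46 higher and 31 lower (background 37.4%), and at 30 days 77, 47 higher and 30 lower (background 41.2%). From 7 to 15 days 16 rose and 24 fell (background 13.3%), and from 15 to 30 days 17 rose and 9 fell (background 10.1%, with 3.94% higher and 6.11% lower). The first of these totals, 40, was 21 without replicate 1 or 2 of 15 days. The second, 26, was 13 and 15 without replicates 1 and 2 of 15 days and 16 without replicate 2 of 30 days. The lists hold few genes at the floor of the arrays: without the dimmest 25% of genes, 58.6% of the 116 listed genes left were called at 7 days, beside a background of 44.0%. The balance of these counts depended on scaling. Centring each array on its median gave 34 higher and 31 lower at 7 days, 39 and 44 at 15 days, and 25 and 8 from 15 to 30 days. Only at 15 days did this reverse the direction. A further quantile normalization reversed none, with 40 higher and 28 lower at 7 days and 45 and 33 at 15 days. GPX2 and TXNIP kept their direction against 24h under both scalings tried.

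By likeness of values over the 8 arrays, the genes nearest to GPX2 were CD274, GCNT3, SFTA2, OASL and CRABP2. Likeness was the root mean square difference of log2 values after each gene was centred on its own mean, and it was 0.32 for CD274 and 0.47 for CRABP2. CD274, the checkpoint ligand PD-L1, had values of 7.79 and 7.67 at 24h and between 3.08 and 3.30 on all 6 later arrays. GCNT3, an enzyme that branches mucin glycans, stood at 7.77 and 7.87 at 24h and at 2.70 to 3.10 later. All 5 genes shared the early drop, with changes from 24h to 7 days between -3.21 (CRABP2) and -4.91 (GCNT3). On every later array CD274, GCNT3, SFTA2 and OASL lay below the array medians, as GPX2 did. Likeness among such low values says little about a shared course. The means of CRABP2 stayed above the medians, at 5.77 at 7 days and 4.84 at 30 days.

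For TXNIP the nearest genes were IFI44, IFIT1, MX1, OAS2 and XAF1, which are all known as interferon-induced. Their differences from TXNIP ran from 0.33 (IFI44) to 0.69 (XAF1), against 1.95 between GPX2 and TXNIP themselves. IFI44 had values of 8.87 and 8.35 at 24h, 5.50 and 4.79 at 7 days, 7.45 and 7.22 at 15 days, and 7.92 and 7.85 at 30 days. It lay 3.46 lower at 7 days than at 24h and 1.27 lower at 15 days, where TXNIP lay 0.63 lower. These genes were chosen for their likeness, so their values are descriptions. An interferon-induced gene, OASL, was also among those nearest to GPX2.

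**Figure D4:**
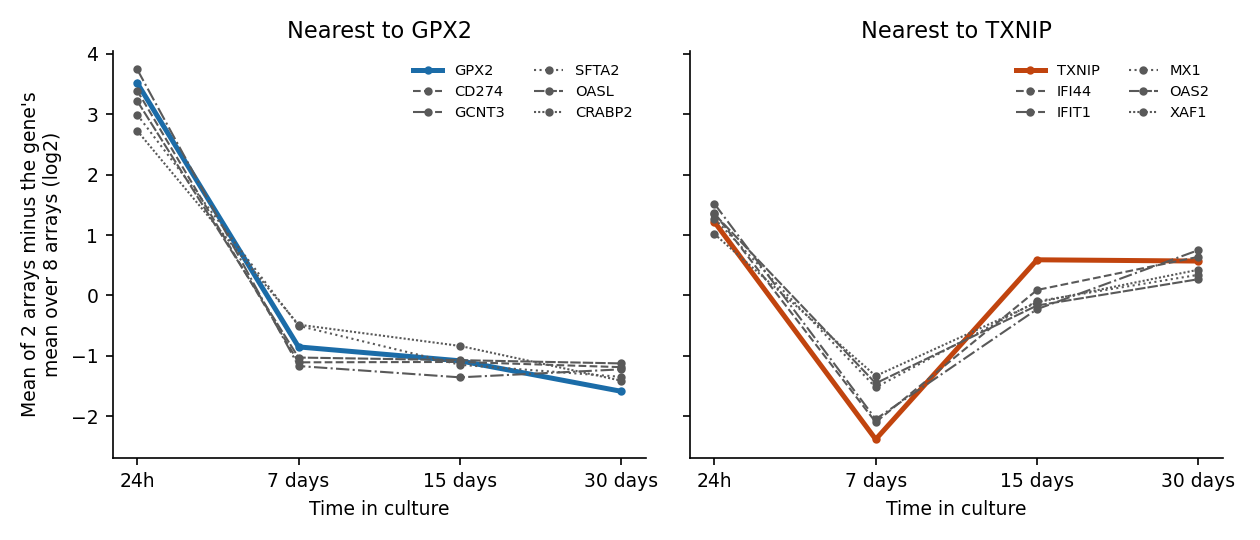
Mean of 2 arrays at each time minus the gene's own mean over 8 arrays (log2), for GPX2 with its 5 nearest genes (left) and TXNIP with its 5 nearest genes (right), the 4 times evenly spaced. The genes beside GPX2 drop by 7 days and stay low, and those beside TXNIP have their minimum at 7 days but lie below the TXNIP line at 15 days.

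The comparison of 7-day changes with the genes beside GPX2 and TXNIP on their chromosomes is a description only. The 2 genes were chosen among the largest 7-day falls of all named genes. A smaller fall in almost any neighbour was thus fixed in advance. This comparison was chosen after the data were seen and used the order of protein-coding genes in the RefSeq annotation of Sscrofa11.1, 3 genes to each side. Around GPX2, SPTB, PLEKHG3, FNTB and MAX were measured, with 7-day changes of -0.047 ± 0.13, -0.072 ± 0.14, -0.070 ± 0.15 and -0.63 ± 0.11 (limma adjusted p = 0.848, 0.776, 0.806 and 0.00206). Beside TXNIP, HFE2 changed by -0.075 ± 0.12 and POLR3GL by 0.19 ± 0.14 at 7 days (limma adjusted p = 0.710 and 0.389). FCGR1A changed by 0.056 ± 0.14 and a gene with a placeholder symbol by 0.081 ± 0.12 (limma adjusted p = 0.8365 and 0.686). LIX1L, the third gene along, rose by 1.46 ± 0.13 (limma adjusted p = 2.96e-05). At 7 days 15.4% of all named genes were called lower and 18.3% higher.

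Cell type markers also changed over the culture. Of 9 measured epithelial markers, 0 rose and 6 fell at 7 days, 2 rose and 6 fell at 15 days, and 0 rose and 7 fell at 30 days. The shares that fell, 66.7%, 66.7% and 77.8%, stand beside 15.4%, 18.1% and 21.1% of all named genes. Their mean log2 level per array lay between 9.98 and 10.04 (24h), 9.04 and 9.12 (7 days), 7.76 and 7.91 (15 days), and 6.40 and 6.45 (30 days), stepping down at every time. EPCAM, which defines epithelium, stood at a mean of 11.23 at 24h, 9.51 at 7 days, 7.85 at 15 days and 3.31 at 30 days, while KRT8, a keratin of simple epithelia, stood at 11.05, 11.27, 11.85 and 11.34. Of 10 measured fibroblast markers, 7, 6 and 8 rose and 0 fell at the 3 times (all named genes 18.3%, 19.3% and 20.2% higher), and their mean level lay between 4.29 and 4.38 at 24h and between 7.58 and 7.69 at 30 days. The part of this change in the levels of GPX2 and TXNIP was not tested.

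The 5 oviductal secretory markers had mean levels of 8.07 to 8.57 at 24h and 6.46 to 6.90 on later arrays, with 1 rising and 2 falling at 7 days. The median change of the 5 at 7 days was -0.070, so the lower mean rests mostly on OVGP1. OVGP1, which defines these cells, stood at a mean of 11.12 at 24h and 3.74 at 7 days. The 5 ciliated cell markers lay between 4.67 and 5.07 at 24h and between 3.87 and 3.99 later, and 2 of 5 fell at each time. Of 5 endothelial markers, 3 fell at 7 days and 2 at 15 and at 30 days, and their mean level was 4.33 to 4.59 at 24h, lowest at 7 days (3.61 to 3.67) and 3.80 to 3.87 on later arrays. Their median change against 24h was -0.61 at 7 days, -0.12 at 15 days and -0.043 at 30 days. This 7-day low was like that of TXNIP in its timing, and its part in the TXNIP values was not tested. The later course differed: the endothelial mean levels at 15 and 30 days stayed nearer to those of 7 days than of 24h. TXNIP went from a mean of 6.47 at 7 days to 9.44 at 15 days, nearer to its 10.07 at 24h. All the endothelial mean levels lay below the array medians of 4.69 to 4.77. From 7 to 15 days 1 of 5 was called higher (20%), beside 6.58% of all named genes. Of 7 leukocyte markers, 0 were called at 7 days and 2 and 3 fell at 15 and 30 days, at mean levels of 4.61 to 5.09 over all arrays. Beside the counts of these lists, 15.4%, 18.1% and 21.1% of all named genes fell at 7, 15 and 30 days, and 18.3% rose at 7 days.

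**Figure D5:**
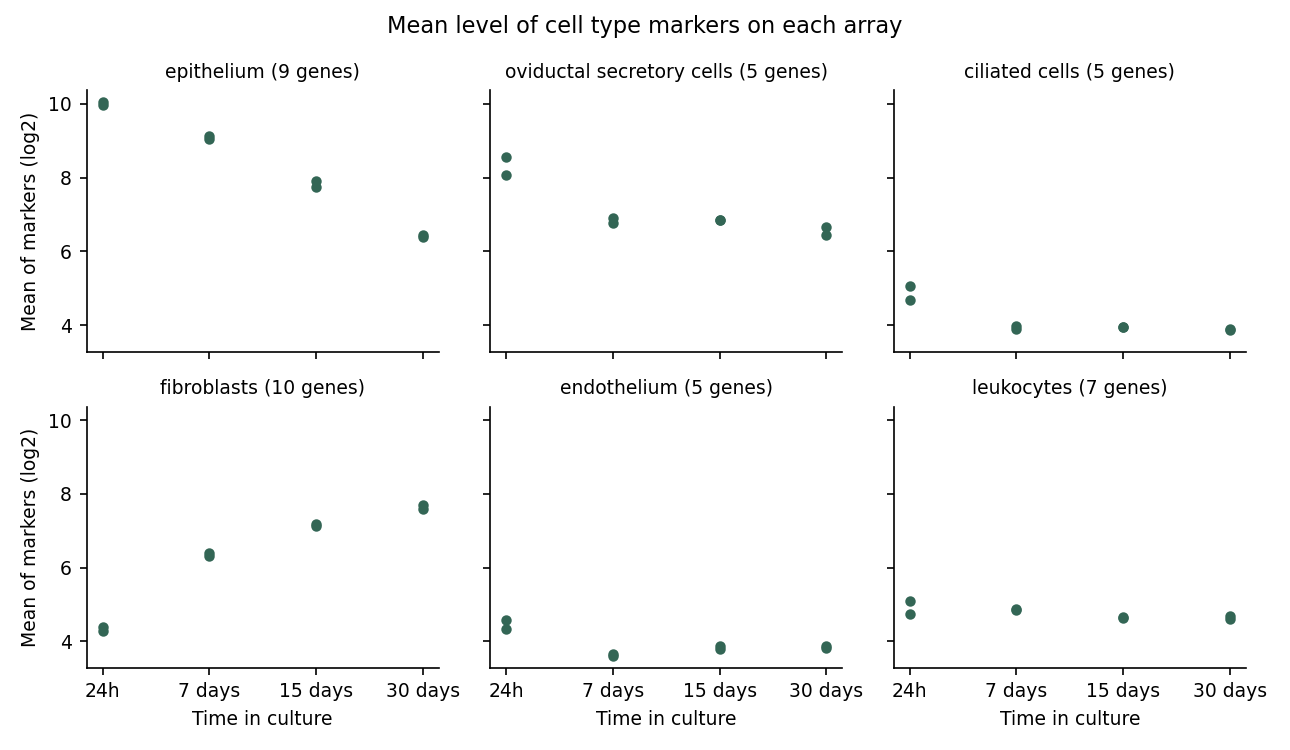
Mean log2 level of the measured markers of 6 cell types on each array, by time in culture with the 4 times evenly spaced; each point is 1 array. Epithelial markers step down from about 10.04 to 6.40 and fibroblast markers step up from 4.29 to 7.69, while endothelial markers are lowest at 7 days.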

How the data were processed

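Per the labels, total RNA of the cultured cells was amplified in sense orientation and read as biotin-labelled cDNA on 1-colour Affymetrix arrays. The deposited log2 values, 1 per probe set and array, were made by the authors with RMA, per the submitters' processing notes, and the version, annotation and filters used for it are not named there. RMA gives arrays nearly equal distributions, so a shift of most genes one way would not show.

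A single gene symbol was held by 11968 of 27558 probe sets, while 373 had several symbols, 6 had a symbol and identifier of different genes, and 15211 were unnamed here. Identifiers of 11190 named probe sets matched RefSeq genes of Sscrofa11.1. The probe set with the highest mean was kept for each of 10901 genes. All 8 arrays entered 1 limma 3.58.1 model (R 4.3.3, lmFit and eBayes) with 1 mean per time and 4 residual degrees of freedom. A gene was called where its p, adjusted by Benjamini-Hochberg across the 10901 genes, was under 0.05. Changes are later minus earlier in log2 units with their SE, and levels have the SD of 2 arrays. The fit was tested on simulated data. Depth does not apply, and the number of arrays limits precision.

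The members and lists were chosen with earlier results of these data known. The text names 17 measured genes of a fixed panel, up to 3 called genes of each list with the largest change from 24h, and the 5 genes nearest to each member; EPCAM, KRT8, OVGP1, GPX5, GPX6, IL24 and the neighbours on the chromosome are named beyond that rule. Alternatives were median centring, quantile normalization, no dim genes, the mean of probe sets, a trended robust variance, 2 groups only, a replicate block and each array left out. No sequences are shown.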

Additional observations from a re-analysis of the deposited data

How the results depend on the processing

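The differences of GPX2 and TXNIP from 24h kept their direction under every alternative run. That of TXNIP at 15 days moved from -0.63 to -0.80 with median centring and to -0.56 with a further quantile normalization. Median centring shifted the median change of all genes by -0.16 at 7 days, -0.17 at 15 days and 0.13 from 15 to 30 days, and cut the share of higher calls among all genes from 54.2% to 36.0% at 7 days and from 51.5% to 34.3% at 15 days, and raised it from 39.2% to 65.1% from 15 to 30 days. Leaving out 1 array each, GPX2 ranged from -4.67 to -4.08 at 7 days and TXNIP from -3.88 to -3.33; where this leaves 1 array at a time, it is assumed to vary like the others. Counts of called genes ranged from 633 to 1583 (main 1450) for 15 against 7 days and from 506 to 1211 (main 1096) for 30 against 15 days, and those of listed redox genes from 21 to 42 (main 40) and from 13 to 28 (main 26), the lowest each without replicate 1 of 15 days. Counts against 24h stayed within 1.5 times under every alternative. Of 182 calls of 55 named genes over 5 comparisons, 143 held under every alternative and 39 were lost under 1 or more. Replicate numbers are shared across times. Deviations of same-numbered arrays correlated at 0.0080 to 0.27, over 0.1 only between 7 and 15 days. Whether same-numbered arrays share more than a number is not known, and the main fit left the number out. With the replicate block 66, 78, 79, 45 and 27 listed genes were called in the 5 comparisons, in the order 7, 15 and 30 days against 24h, 15 against 7 and 30 against 15 days, beside 65, 77, 77, 40 and 26 without it. The GPX2 differences were the same with the replicate block (-4.37, -4.60 and -5.10), as were those of TXNIP (-3.61, -0.63 and -0.65). With no detection calls used, the size of GPX2's difference is limited by the floor of the arrays.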
